A study of Mus musculus with 6 samples.

Results

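Non-classical MHC class I genes, also called class Ib genes, encode relatives of the classical MHC-I molecules H-2K and H-2D. The genes examined were chosen by name, and comprised *H2-Q4*, *H2-Q6*, *H2-Q7*, *H2-Q10*, *H2-T22*, *H2-T23*, *H2-T24*, *H2-M3*, *Cd1d1* and *Mr1*. All 10 were rows of the deposited table of 78275 genes, and all 10 were among the 16105 genes that passed the filter on low counts and were tested. Their transcripts were compared in CD8+ T cells of BIT mice and WT mice, and none of the 10 passed the test for a difference between the groups.

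Classical MHC-I molecules are highly polymorphic and show peptides to conventional CD8+ T cells, whereas class Ib molecules vary little between individuals and often hold a specialised ligand for a small set of T cells or NK cells. Most of them need β2-microglobulin as a partner chain, and many of those in the MHC depend on the peptide transporter TAP. They are of interest in mice with altered proteasomes because the proteasome makes many of the peptides that MHC-I molecules carry.

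RNA was sequenced from TCRbhigh CD4-CD8+ T cells of 3 WT and 3 BIT mice, with 1 library for each mouse. All mice were male by their labels, 9 to 10 weeks old and of the C57BL/6 background, and the sorted cells were more than 98% pure according to the labels. WT mice carried the unmodified *Psmb8* gene, which encodes the immunoproteasome subunit β5i. BIT mice were homozygous for an allele in which the cDNA of *Psmb11*, which encodes the thymoproteasome subunit β5t, was placed at the translation start in exon 1 of *Psmb8*. The insert is thus driven by the *Psmb8* promoter in all cells that use it, including the T cells themselves and the cells that select them, and the study used a single BIT line unless it says otherwise. The labels give lymph nodes as the source, while the accompanying protocol names lymph nodes and spleens. The 3 mice of a group are individual animals. A difference in RNA per cell could not be told apart from a difference in the share of cells that express a gene.

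The labels were checked against the edited gene first. *Psmb8* had 10790, 10345 and 8024 estimated counts in the WT mice and 73, 59 and 60 in the BIT mice, and its level fell by 6.997 on the log2 scale (adjusted p = 2.87e-06, limma-voom). *Psmb11* had 0 counts in every WT mouse and 1926, 1754 and 1226 in the BIT mice. Total counts ranged from 37467678 to 52922675 for each library. The 8 listed markers of CD8 T cells summed to between 4585 and 4903 CPM, counts scaled to a common library total, in WT mice and between 4782 and 5144 in BIT mice, and 4 markers of CD4 T cells to at most 5.68 CPM. The 6 markers of B cells summed to between 333 and 353 CPM in WT mice and between 324 and 361 in BIT mice, nearly all of it *Ighm*. None of the markers of B cells or of myeloid and dendritic cells was called, but all 6 B cell markers and all 8 tested myeloid markers were fitted below 0 in BIT mice, with medians of -0.31 and -0.48 on the log2 scale, and their part in the class Ib values was not tested. The library labelled WT replicate 3 went against its label, with 66626 counts of *Xist* and 0 counts over 4 Y-linked genes, where the other 5 libraries had 2 to 125 and 8474 to 12329. It also lay farthest out on the first principal component of all tested genes, which held 34.4% of the variance. The differences of the class Ib genes are therefore shown with and without it, but those of markers and related genes with all mice only. Among myeloid markers, *Itgax* had 20.6 CPM in this library, 2.91 and 3.58 in the other WT mice and 6.03, 3.07 and 5.53 in the BIT mice. *Itgam* had 4.93 CPM there, 0.964 and 1.27 in the other WT mice and 1.27, 0.998 and 1.39 in the BIT mice. *Lyz2* and *Adgre1* were lower in every BIT mouse than in the other WT mice.

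Several class Ib genes are near-identical copies, and reads from one can be assigned to another. The sequences below are coding bases from the canonical transcripts of Gencode M39 on GRCm39, the assembly that the deposited counts were made on. *H2-Q6* and *H2-Q7* encode Qa-2 molecules and shared 95.4% of their aligned coding bases, with an identical stretch of 265 bases. For each pair the 100-base coding window with the most differences is shown, because such bases are what distinguishes the reads of the pair. Capitals mark the bases that differ, of which this pair had 13. The window runs from exon 1 into exon 2 of both genes, at chr17:35643908-35644174 for *H2-Q6* and chr17:35658252-35658518 for *H2-Q7*, both on the plus strand and with the intron left out.
H2-Q6: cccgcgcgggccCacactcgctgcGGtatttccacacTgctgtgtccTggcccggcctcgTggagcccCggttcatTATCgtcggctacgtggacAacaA
H2-Q7: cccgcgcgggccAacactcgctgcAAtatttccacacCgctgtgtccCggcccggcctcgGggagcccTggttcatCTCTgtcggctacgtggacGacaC

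*H2-T22* and *H2-T10* encode ligands for receptors of some γδ T cells and shared 96.9% of their aligned coding bases. Their most different window held 9 differences, in exon 4 of *H2-T22* (chr17:36351505-36351604) and exon 5 of *H2-T10* (chr17:36430216-36430315), both on the minus strand.
H2-T22: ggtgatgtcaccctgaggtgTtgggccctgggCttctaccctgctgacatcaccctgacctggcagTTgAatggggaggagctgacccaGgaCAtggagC
H2-T10: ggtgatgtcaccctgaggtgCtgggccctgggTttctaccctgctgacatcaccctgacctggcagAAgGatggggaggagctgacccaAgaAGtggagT

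*Cd1d1* and *Cd1d2* shared 96.8% of their aligned coding bases. Their most different window also held 9 differences, in exon 2 of both, at chr3:86906083-86906182 on the minus strand for *Cd1d1* and chr3:86894325-86894424 on the plus strand for *Cd1d2*.
Cd1d1: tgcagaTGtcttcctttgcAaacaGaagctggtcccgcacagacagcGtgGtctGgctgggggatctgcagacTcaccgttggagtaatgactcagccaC
Cd1d2: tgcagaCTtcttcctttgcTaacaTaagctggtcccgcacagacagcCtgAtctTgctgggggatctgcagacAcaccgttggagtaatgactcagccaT

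The reads were 100 bases long and paired, so the share of 100-base windows of a canonical transcript that occurred in no other gene's transcripts was counted. It was 100% for *H2-T24*, *H2-M3* and *Mr1*, 97.2% for *H2-Q4* and *H2-Q10*, 91.9% for *H2-T23*, 88.8% for *H2-Q6*, 86.2% for *H2-T22*, 85.5% for *Cd1d1* and 78.1% for *H2-Q7*. *H2-Q7* thus had the lowest share. It shared 140 of its windows (10.0%) with *H2-Q5*, the closest of the genes compared, at 96.98% of aligned coding bases, and *H2-Q6* shared 166 of its windows with *H2-Q7*, so sums of these genes are given as well. *H2-Q8* and *H2-Q9* were not among the symbols of the table.

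The final sequences concern *H2-T23*, which encodes Qa-1, the ligand of the CD94/NKG2A receptor. Qa-1 typically carries a peptide cut from the leader of H-2D, called Qdm, which is encoded in residues 3 to 11. The coding bases of this segment are shown for *H2-D1* (exon 1, chr17:35482096-35482122), for *H2-Q10* (exon 1, chr17:35781010-35781036) and, for contrast, for the same coding positions of *H2-Q7* (exon 1, chr17:35658203-35658229), all on the plus strand, with capitals where a base differs from *H2-D1*.
H2-D1: gcgatggctccgcgcacgctgctcctg
H2-Q10: gcgatggcGccgcgcacgctgctcctg
H2-Q7: CTAaCAATGcTgcTcTTgctgGtGGCg
*H2-Q10* differed from *H2-D1* at 1 of the 27 bases and encoded the same residues. Of 22 coding sequences searched, namely the 10 genes, *H2-D1*, *H2-K1* and related genes, these were the 2 that encoded this segment anywhere. *H2-Q7* differed at 16 bases. Positions were compared without aligning the leaders, so this count cannot separate changed bases from a shift in position.

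The 10 genes spanned a wide range of levels, set out here as CPM per kilobase of summed exon length, the mean ± SD of the 6 mice. *H2-Q7*, which encodes a Qa-2 molecule held on the membrane by a lipid anchor, was the highest at 140.4 ± 26.9 (SD, n = 6). *H2-T23* followed at 71.3 ± 6.58, *H2-Q6* at 53.1 ± 10.9, *H2-Q4* at 41.0 ± 5.31 and *H2-T22* at 33.3 ± 2.75. These 5 genes stood apart from the lower 5, since *H2-T22* exceeded *H2-M3* by 3.13-fold. *H2-M3*, whose product presents N-formylated peptides of bacteria and mitochondria, had 10.63 ± 0.672 CPM per kb. *H2-T24* had 7.61 ± 2.10 and *Cd1d1*, which presents lipids to NKT cells, 5.43 ± 0.399. *Mr1*, which presents vitamin B metabolites to MAIT cells, had 2.03 ± 0.236 and *H2-Q10* had 1.52 ± 0.598. The classical genes *H2-K1* and *H2-D1* had 431 ± 39.6 and 485 ± 41.1 on the same scale, so *H2-Q7* reached 32.6% of the *H2-K1* level and *H2-Q10* 0.353%. These levels and ratios depend on the length used. For *H2-Q7* it was 4269 bases of summed exons, but 4209 in the longest transcript and 1497 in the canonical one. For *H2-K1* these lengths were 3185, 1874 and 1619 bases.

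**Figure D1:**
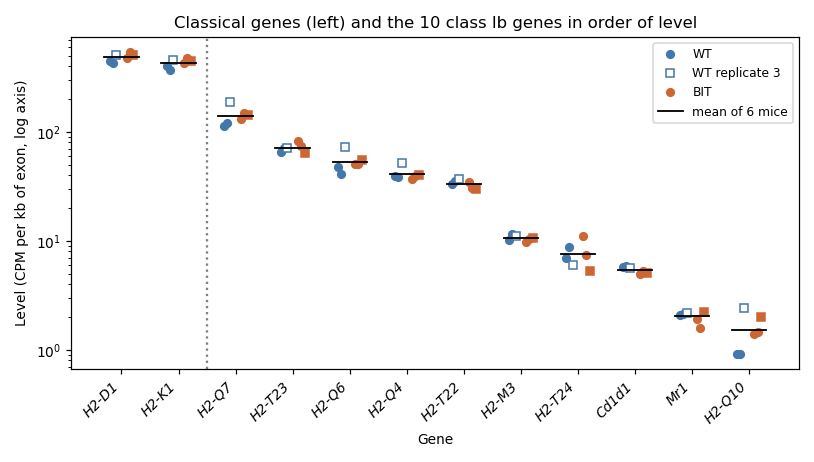
Level of the classical genes H2-D1 and H2-K1 and of the 10 class Ib genes, in CPM per kb of exon on a log axis, with 1 point for each mouse (blue WT, orange BIT, squares replicate 3, open square WT replicate 3) and a line at the mean of 6 mice. The class Ib genes run from 140.4 for H2-Q7 to 1.52 for H2-Q10, with a step between H2-T22 and H2-M3, and WT replicate 3 lies above the other WT mice for the 4 H2-Q genes.

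Neighbours in this order were compared within mice by an exact sign-flip permutation test over the 6 mice (two-sided), adjusted over the 9 neighbour pairs. The order came from the same 6 mice, so the direction of each pair was set by it. The test shows only how steadily each step held across mice. It cannot detect an error in a gene's length, which would shift all 6 mice alike. In 6 pairs the upper gene was higher in 6 of 6 mice (p = 0.0312, the smallest that 6 mice allow, adjusted p = 0.0469 in this exact test). Neighbours that did not differ beyond their spread were *H2-T23* and *H2-Q6* (1.36-fold, higher in 5 of 6 mice), *H2-M3* and *H2-T24* (1.44-fold, 5 of 6 mice), each with an adjusted p of 0.0703 in the exact test, and *Mr1* and *H2-Q10* (1.41-fold, 5 of 6 mice, adjusted p = 0.0938 in the exact test). The mean over mice includes both groups, and the order was the same without any one mouse.

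The comparison of BIT with WT mice asked whether replacing β5i by β5t went with a change of class Ib transcripts in CD8+ T cells. No difference passed the test. At an adjusted p below 0.05 limma-voom called 0 of the 10 genes, where it called 22 of 16105 genes tested (0.137%). At an unadjusted p below 0.05 it also called 0 of the 10, against 8.57% of all tested genes. The quasi-likelihood test of edgeR and DESeq2 each called 0 of the 10 as well, at an adjusted and at an unadjusted p below 0.05. Of all 16105 genes, edgeR called 14 at an adjusted p below 0.05 and 7.44% at an unadjusted p below 0.05. DESeq2 called 125 and 7.21% in the same way. The log2 differences between BIT and WT mice ranged from -0.20 for *H2-T22* to 0.40 for *H2-Q10*, and their median was -0.10, beside 0.01 over all tested genes. Their 95% intervals lay within 2-fold in either direction for 9 of the 10 genes, all but *H2-Q10*, and within 1.5-fold for 8, all but *H2-Q10* and *H2-T24*. An absence of calls does not show that the levels were equal, and these intervals give the size of difference that the 6 mice leave possible. With 3 mice against 3 the exact permutation test cannot go below 0.1.

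**Figure D2:**
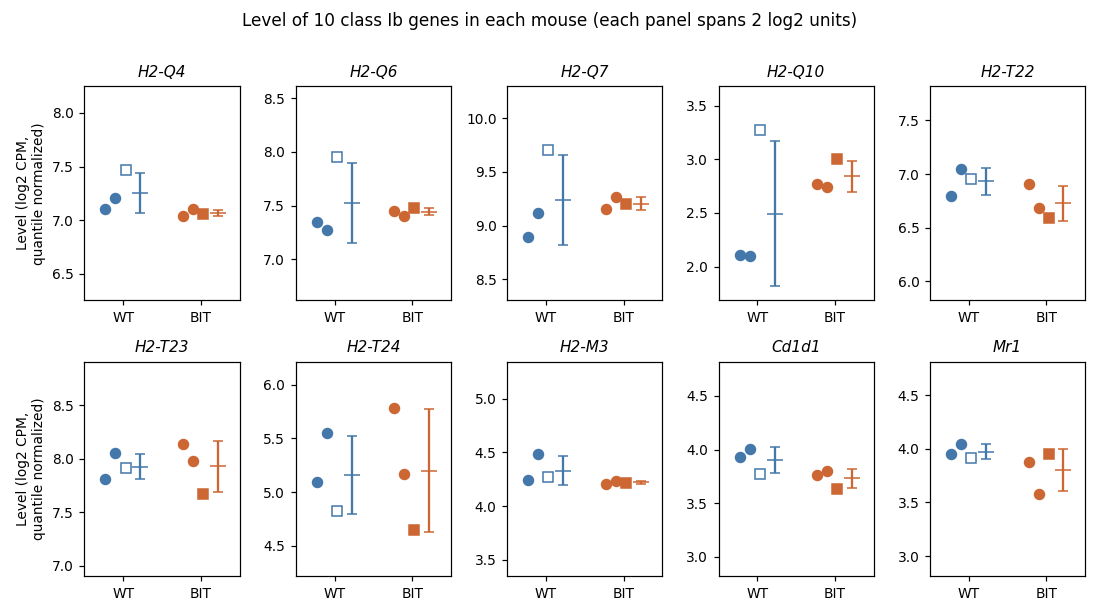
Level of each class Ib gene in each mouse, as log2 CPM after quantile normalization, with the mean and SD of each group of 3 beside the points (blue WT, orange BIT, squares replicate 3, open square WT replicate 3). WT replicate 3 is the highest WT mouse for H2-Q4, H2-Q6, H2-Q7 and H2-Q10, while the BIT mice of these genes lie close together.

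Of the H2-Q genes, *H2-Q4* (chr17:35598586-35604274, plus strand) encodes the class Ib molecule Qb-1. It had 138, 134 and 181 CPM in the WT mice and 130.0, 139 and 141 in the BIT mice. The groups overlapped in CPM, but after quantile normalization all 3 BIT mice lay below all 3 WT mice. The fitted log2 difference was -0.19 (SE 0.10, 95% interval -0.42 to 0.04, adjusted p = 0.645 by limma-voom). Without WT replicate 3, its highest mouse, it was -0.08 (-0.28 to 0.11, adjusted p = 0.718 by limma-voom).

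*H2-Q6* (chr17:35643777-35655332, plus strand) had 164, 142 and 250.4 CPM in the WT mice and 172, 172 and 190.2 in the BIT mice. *H2-Q7* (chr17:35658131-35662749, plus strand) had 483, 512 and 804 CPM in the WT mice and 556, 631 and 612 in the BIT mice. In both genes the BIT mice lay between the first 2 WT mice and WT replicate 3, so the groups overlapped. The fitted log2 differences were -0.08 (95% interval -0.45 to 0.29) for *H2-Q6* and -0.04 (-0.44 to 0.37) for *H2-Q7*, with adjusted p of 0.911 and 0.966 by limma-voom. The sign rested on WT replicate 3. Without it the differences were 0.13 (-0.06 to 0.32) and 0.20 (-0.02 to 0.42), with adjusted p of 0.557 and 0.465 by limma-voom, and *H2-Q7* was also fitted above 0 under each of the other scalings tried, at 0.029 with TMM and 0.035 with library totals.

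*H2-Q10* (chr17:35780959-35785460, plus strand) encodes a secreted class I molecule best known as a product of the liver. It had 4.03, 4.03 and 10.65 CPM in the WT mice and 6.16, 6.37 and 8.69 in the BIT mice, or 204 to 425 estimated counts in each library. The 3 BIT mice were above WT replicates 1 and 2 and below WT replicate 3. The fitted log2 difference was 0.40 (SE 0.29, 95% interval -0.26 to 1.05, adjusted p = 0.723 by limma-voom). Without WT replicate 3 it was 0.74 (0.33 to 1.15), with an unadjusted p of 0.00262 and an adjusted p of 0.237 by limma-voom. It was then the 1 gene of the 10 with an unadjusted p below 0.05, where 11.7% of the 16502 genes tested without that library were, and none of the 10 was called at an adjusted p below 0.05, where 0.224% of those genes were. The 4 listed markers of hepatocytes were at 0 counts in every library, which allows each at most 0.0801 CPM for a floor of 3 counts.

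In all 4 H2-Q genes WT replicate 3 was the highest of the 6 libraries on the normalized scale, by 0.31 (*H2-Q4*), 0.64 (*H2-Q6*), 0.70 (*H2-Q7*) and 1.17 (*H2-Q10*) on the log2 scale over the mean of the other WT mice. Over all tested genes WT replicate 3 was highest for 17.1%. The same library had 706 counts of *Klrc1*, which encodes the NKG2A chain of the Qa-1 receptor, where the other libraries had 167 to 346. It also had 822 counts of *Itgax*, where the others had 129 to 270, and its 9 listed markers of myeloid and dendritic cells summed to 43.6 CPM, beside 15.7 and 23.6 in the other WT mice and 12.2 to 20.6 in the BIT mice. Without *Itgax* this sum was 23.1 CPM in WT replicate 3, 12.8 and 20.1 in the other WT mice and 9.13 to 15.1 in the BIT mice. *Itgam*, *Cd68* and *Xcr1* were also highest in WT replicate 3. They had 4.93, 3.23 and 2.43 CPM there, and at most 1.39, 1.96 and 1.94 in the other libraries. *Flt3* was higher in WT replicate 3 than in the other WT mice but highest in BIT replicate 3. *Lyz2*, *Csf1r*, *Adgre1* and *Siglech* were lower in WT replicate 3 than in WT replicate 2. *Klrc1* and *Itgax* were picked after their values were seen, and the part of other cells in the H2-Q values was not tested.

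Of the H2-T genes, *H2-T23* (chr17:36340229-36345571, minus strand) encodes Qa-1. It had 225, 243 and 243 CPM in the WT mice and 281, 256 and 219 in the BIT mice. The BIT mice spanned the WT mice, and the fitted log2 difference was 0.00 (SE 0.12, 95% interval -0.28 to 0.29, adjusted p = 0.994 by limma-voom). Its sign changed when a single mouse was left out, between -0.10 and 0.14.

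*H2-T22* (chr17:36348020-36353650, minus strand) had 113, 121 and 125 CPM in the WT mice and 118, 103 and 103 in the BIT mice. BIT replicate 1 lay among the WT mice and the other BIT mice below them. The fitted log2 difference was -0.20 (SE 0.11, 95% interval -0.44 to 0.04, adjusted p = 0.642 by limma-voom), the lowest adjusted p of the 10 genes. Its near-copy *H2-T10* had 841, 744 and 814 counts in the WT mice and 580, 520 and 508 in the BIT mice, and its log2 difference was -0.36 (95% interval -0.63 to -0.08, adjusted p = 0.531 by limma-voom).

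*H2-T24* (chr17:36314363-36331485, minus strand) was the most variable of the H2-T genes. It had 34.3, 43.1 and 29.2 CPM in the WT mice and 54.3, 36.2 and 26.02 in the BIT mice. The groups overlapped, with the highest and the lowest mouse both in the BIT group. The fitted log2 difference was 0.05 (SE 0.27, 95% interval -0.57 to 0.66, adjusted p = 0.970 by limma-voom), and it ran from -0.25 to 0.31 when 1 mouse was left out, with -0.11 without WT replicate 3.

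*H2-M3* (chr17:37581106-37585384, plus strand) had 18.7, 21.2 and 20.4 CPM in the WT mice and 17.8, 18.8 and 19.3 in the BIT mice. As with *H2-Q4*, the groups overlapped in CPM and did not overlap after quantile normalization. The fitted log2 difference was -0.11 (SE 0.10, 95% interval -0.35 to 0.12, adjusted p = 0.786 by limma-voom).

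The remaining genes lie outside the MHC. *Cd1d1* (chr3:86903132-86906770, minus strand) had 15.1, 15.3 and 14.6 CPM in the WT mice and 12.9, 13.8 and 13.1 in the BIT mice. Here the groups did not overlap in CPM but overlapped after quantile normalization, and the fitted log2 difference was -0.17 (SE 0.11, 95% interval -0.43 to 0.09, adjusted p = 0.708 by limma-voom). *Mr1* (chr1:155003021-155022579, minus strand) had 15.4, 15.7 and 16.02 CPM in the WT mice and 13.9, 11.7 and 16.2 in the BIT mice. In CPM the highest and the lowest mouse were both BIT mice, and the fitted log2 difference was -0.18 (SE 0.12, 95% interval -0.46 to 0.11, adjusted p = 0.716 by limma-voom).

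On the normalized scale 2 of the 10 genes, *H2-Q4* and *H2-M3*, had BIT mice all below WT mice, where 5.96% of all tested genes did, and 0 of 10 had BIT mice all above, where 7.38% did. In CPM by library totals 1 of the 10, *Cd1d1*, had BIT mice all below, where 6.69% of tested genes did, and 0 had them all above, where 6.09% did. None of the 10 was separated on both scales. The fitted difference was below 0 for 7 of the 10 genes and above 0 for 3, and none of these signs was called.

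**Figure D3:**
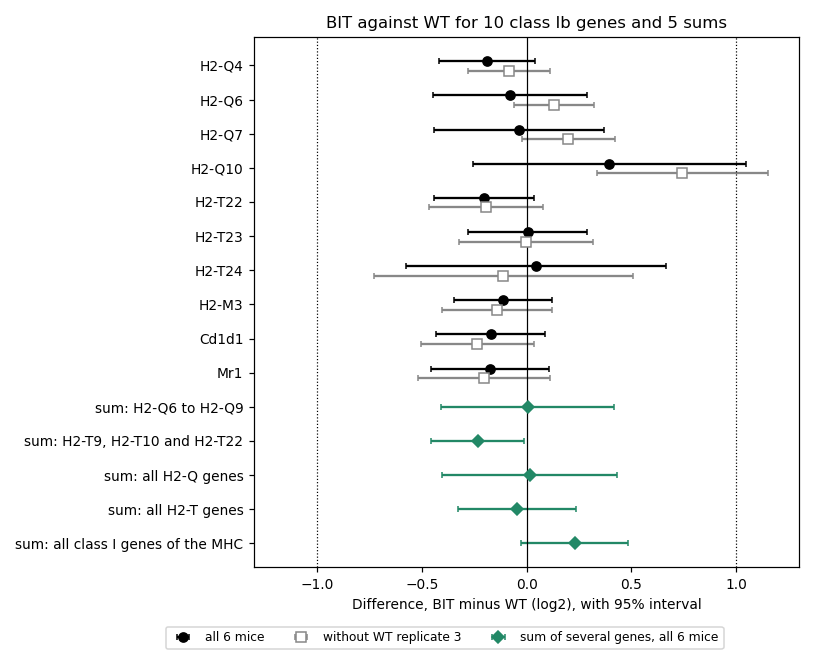
Difference between BIT and WT mice on the log2 scale with its 95% interval for the 10 class Ib genes with all 6 mice (black) and without WT replicate 3 (grey squares), and for 5 sums of several genes (green). Dotted lines mark 2-fold in either direction. With 6 mice 10 of 10 intervals of single genes cross 0, and the interval of H2-Q10 alone reaches past 2-fold. Without WT replicate 3, H2-Q6 and H2-Q7 move above 0 and the H2-Q10 interval lies above 0.

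A sum over near-identical genes does not depend on how reads were divided within the sum, although reads can still be divided with genes outside it. *H2-Q6* and *H2-Q7* together had 647, 653 and 1054 CPM in the WT mice and 728, 803 and 802 in the BIT mice, with a log2 difference of 0.01 (95% interval -0.41 to 0.42, adjusted p = 0.995 by limma-voom). Without WT replicate 3 this difference was 0.26 (adjusted p = 0.364 by limma-voom). With *H2-Q5* added to the sum, a choice made after seeing the data, it was 0.03 with all mice (-0.39 to 0.44, adjusted p = 0.972 by limma-voom) and 0.27 without WT replicate 3 (adjusted p = 0.346). *H2-T9*, *H2-T10* and *H2-T22* together had 129, 136 and 146 CPM in the WT mice and 131, 116 and 116 in the BIT mice, with a log2 difference of -0.23 (-0.46 to -0.01, unadjusted p = 0.042, adjusted p = 0.561 by limma-voom). The 8 H2-Q genes of the table summed gave 0.02 (-0.40 to 0.43), or 0.26 without WT replicate 3, and the 11 H2-T genes -0.04 (-0.33 to 0.24). All 37 class I genes of the MHC summed gave 0.23 (-0.03 to 0.48, adjusted p = 0.630 by limma-voom). On the normalized scale WT replicate 3 and BIT replicate 1 had the same value for this sum, as did BIT replicates 2 and 3. The size of this difference depended on the scaling. It was 0.089 with TMM, 0.094 with library totals, 0.090 with edgeR and 0.095 with DESeq2. Without WT replicate 3 it was 0.32. None of the 5 sums was called. As a share of these class I counts, the 8 genes in the MHC made up 30.5%, 32.6% and 35.2% in the WT mice and 31.8%, 29.8% and 30.3% in the BIT mice. The means were 32.8% and 30.6%, a difference that did not pass an exact permutation test (two-sided p = 0.2), and the WT mean was 31.6% without WT replicate 3. Of the other class I genes, *H2-K1* and *H2-D1* took most of the rest.

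The 8 genes in the MHC lie on the same chromosome as the edited gene, the nearest, *H2-Q4*, 1178 kb and the farthest, *H2-M3*, 3161 kb from *Psmb8*. Within 3500 kb of *Psmb8* on either side, 206 other genes were tested, the 8 among them. At an adjusted p below 0.05 limma-voom called 0 of them and 0.137% of all tested genes, a share too small for 0 calls to set the window apart. Their median log2 difference was -0.02, and 97.1% lay within 2-fold. The MHC class II genes *H2-Oa*, *H2-DMa*, *H2-DMb1*, *H2-DMb2*, *H2-Ob*, *H2-Ab1*, *H2-Aa*, *H2-Eb1* and *H2-Eb2*, up to 124 kb away, were all fitted below 0. None was called, and they ran from -0.23 (*H2-DMa*) to -0.88 (*H2-DMb1*). The nearest genes *Tap1*, *Tap2* and *Psmb9* were at 0.01, 0.12 and -0.12.

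**Figure D4:**
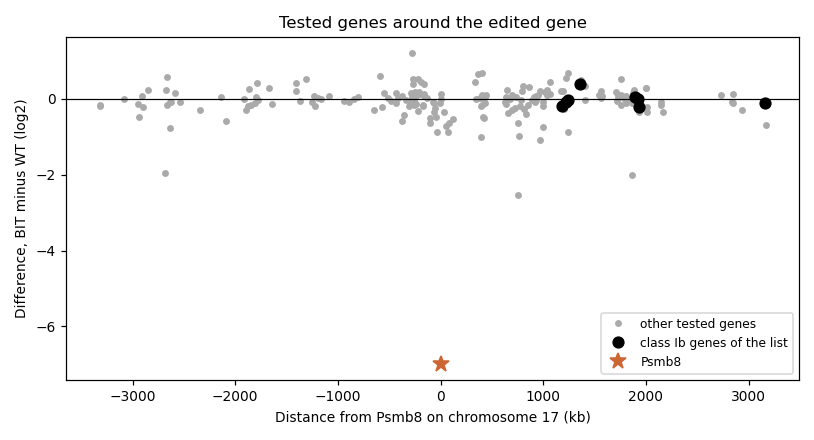
Difference between BIT and WT mice on the log2 scale for tested genes on chromosome 17, against their distance from Psmb8 in kb. The 8 class Ib genes of the MHC (black) lie near 0 between 1178 and 3161 kb, while Psmb8 (star) lies at -6.997.

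Genes that work with class Ib molecules were described by lists. Of 35 other class Ib and class I-like genes, 26 were rows of the table and 4 passed the filter on low counts, *H2-Q5*, *H2-T10*, *Fcgrt* and *Hfe*. None was called, and 3 had an unadjusted p below 0.05, *H2-T10*, *Fcgrt* and *Hfe*, where 8.57% of all tested genes did. *Fcgrt*, the neonatal Fc receptor, had 1013, 896 and 1038 counts in the WT mice and 1151, 1407 and 1132 in the BIT mice (log2 difference 0.52, adjusted p = 0.409 by limma-voom). *Hfe*, a regulator of iron uptake, was low, with 35, 54 and 45 counts in the WT mice and 13, 18 and 15 in the BIT mice. In CPM these were 0.661, 1.07 and 1.13, and 0.290, 0.428 and 0.400 (log2 difference -1.09, adjusted p = 0.511 by limma-voom). On the normalized scale the groups did not overlap in *H2-T10*, *Fcgrt* and *Hfe*. BIT mice lay above WT mice in *Fcgrt*, as in 7.38% of all tested genes. BIT mice lay below WT mice in *H2-T10* and *Hfe*, as in 5.96% of all tested genes. In CPM the groups overlapped in *Fcgrt*.

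All 18 genes of class I assembly and transcription were tested and 0 were called in either direction. Their median log2 difference was 0.08, with 13 fitted above 0 and 5 below. The partner chain *B2m* had a difference of 0.14 (95% interval -0.13 to 0.41) and *H2-K1* and *H2-D1* each had 0.14. The 1 gene of this list with an unadjusted p below 0.05 was *Tapbp*, which encodes the loading factor tapasin, at 0.38 (adjusted p = 0.341 by limma-voom). Among all tested genes 8.57% had an unadjusted p below 0.05.

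Of 7 genes for receptors of class Ib molecules 6 were tested and 0 called. *Cd8a* and *Cd8b1*, whose products bind MHC-I molecules, had differences of -0.04 and 0.12. *Klrd1*, which encodes CD94, had 57.8, 64.1 and 54.9 CPM in the WT mice and 47.7, 40.2 and 48.8 in the BIT mice (log2 difference -0.42, 95% interval -0.70 to -0.14, adjusted p = 0.486 by limma-voom). It was the 1 gene of the list with an unadjusted p below 0.05, beside 8.57% of all tested genes. Of 9 ligands of NKG2D 1 was tested, *Ulbp1*, with a difference of -0.06. All 4 genes that load lipids onto CD1d were tested and 0 called, although *Gm2a* and *Mttp* had unadjusted p below 0.05, beside 8.57% of all tested genes. *Gm2a*, a lipid transfer protein of lysosomes, had a log2 difference of -0.38 (95% interval -0.58 to -0.18, adjusted p = 0.349 by limma-voom). *Mttp* had -0.64 (-1.26 to -0.03, adjusted p = 0.562 by limma-voom). In *Gm2a*, *Mttp* and *Npc2* all BIT mice lay below all WT mice on the normalized scale, as in 5.96% of all tested genes. In *Psap* the groups overlapped. Of 8 genes of T cells restricted by class Ib molecules, 3 were tested and 0 called, and the list summed to at most 3.20 CPM in any mouse.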

How the data were processed

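Stranded, ribosomal RNA-depleted libraries were sequenced in pairs of 100 bases. Per the labels and the study's methods, reads were trimmed with Cutadapt 1.18, aligned to GRCm39 with STAR 2.7.0f and counted with RSEM 1.3.1 on Gencode M38. The values deposited by the authors are thus estimated counts for each gene, of which 84.8% of those above 0 are whole. The strand setting of RSEM is not given in the sources used here, so reads of *H2-Q4*, *H2-Q6*, *H2-Q7*, *H2-Q10* and the 3 H2-T genes cannot be told apart from those of overlapping antisense lncRNAs, the most abundant of which (*Gm11131*, over *H2-Q4*) had 668 to 1024 counts.

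Estimated counts were rounded. Genes kept by filterByExpr of edgeR 4.0.16 were fitted with limma 3.58.1 (voom with quantile normalization, as in the study, with no covariate) in R 4.3.3, with Benjamini-Hochberg adjustment over all 16105 genes and calls at an adjusted p below 0.05. CPM were computed from library totals. Quantile normalization and CPM are relative, so a shift of most genes together would not be seen. Levels per kb used summed exon lengths of Gencode M39. Intervals are 95%, and floors of 3 counts cover counting error only. The scripts were tested on simulated data. Alternatives were other scalings and tools (DESeq2 1.42.0), filters on low counts, unrounded counts, a term for replicate 3, a replicate block, sample quality weights, each mouse left out, and other thresholds. All 10 genes and the lists of related genes were chosen with earlier results of these data known. From those lists the text names genes that passed, otherwise at most the 3 highest by level, besides those counted at an unadjusted p below 0.05. *Klrc1*, *Itgax*, other single markers of myeloid and dendritic cells and the genes close to *Psmb8* are named outside this rule. Sex markers used for the check of labels were *Xist*, *Ddx3y*, *Kdm5d*, *Uty* and *Eif2s3y*.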

Additional observations from a re-analysis of the deposited data

How the results depend on the processing

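None of the 10 genes and none of the 5 sums was called under any of the 16 other fits, nor the 10 genes at an adjusted p below 0.1 or at one below 0.01 with more than 2-fold. The smallest adjusted p of any of the 10 genes was 0.237 (*H2-Q10* without WT replicate 3). At an unadjusted p below 0.05, 1 of the 10 appeared with a term for replicate 3 (*H2-Q4*, beside 14.4% of all genes tested in that fit), with sample quality weights (*H2-Q10*, 12.4%), without WT replicate 3 (*H2-Q10*, 11.7%) and without BIT replicate 1 (*H2-T22*, 6.88%), and 2 without WT replicate 1 (*H2-Q4* and *H2-T22*, 7.5%). The count over all genes was less stable, with 22 called in the main comparison, 7 with library totals only, 14 with edgeR, 125 with DESeq2 and 42 with a term for replicate 3. Leaving out WT replicates 1, 2 and 3 gave 1, 4 and 37, and leaving out BIT replicates 1, 2 and 3 gave 9, 2 and 11. The causes were not tested.

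Differences near 0 changed sign, none of them called. *H2-Q7* was fitted at 0.029 with TMM, 0.035 with library totals, 0.0090 with edgeR, 0.014 with DESeq2 and 0.090 with quality weights, and *H2-Q6* at 0.0096 with quality weights. The H2-T sum was 0.00053 with TMM, 0.0049 with library totals, 0.015 with edgeR, 0.020 with DESeq2 and 0.062 with quality weights. The H2-Q sum was -0.016 with edgeR and -0.011 with DESeq2, and the sum of *H2-Q6* and *H2-Q7* was -0.0041 with edgeR. With 1 mouse left out, *H2-Q6* ran from -0.20 to 0.13, *H2-Q7* from -0.20 to 0.20, *H2-T23* from -0.10 to 0.14 and *H2-T24* from -0.25 to 0.31, the sum of *H2-Q6* and *H2-Q7* from -0.13 to 0.26, the H2-Q sum from -0.11 to 0.26 and the H2-T sum from -0.16 to 0.073. *H2-Q4*, *H2-Q10*, *H2-T22*, *H2-M3*, *Cd1d1* and *Mr1* kept their sign in all 16 fits, but not their size. Without WT replicate 3, *H2-Q4* moved from -0.19 to -0.08 and *H2-Q10* from 0.40 to 0.74. *H2-Q10* was 0.20 without WT replicate 1 and 0.21 without WT replicate 2. *H2-M3* moved from -0.11 to -0.03 without WT replicate 2, and *Mr1* from -0.18 to -0.06 without BIT replicate 2.

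With a replicate block, 21 genes were called in all and 0 of the 10. Libraries of the same number deviated together with correlations of 0.14, 0.03 and 0.33 across genes, and not every library matched its own number best, so the samples were treated as unpaired. WT replicate 3 and BIT replicate 3 did match each other best. Both had positive values on the first principal component (54.6 and 28.6), where the other libraries lay between -36.5 and -3.31. What these 2 libraries share was not tested. The order of levels held under longest transcript lengths, TMM and without any 1 mouse. With canonical transcript lengths, added after seeing the data, 8 of the 10 kept their place, as *H2-M3* and *H2-T24* swapped. Counting error is small at 204 or more counts, and the sources of the remaining spread between mice were not tested. The number of mice bounds the exact tests, as 5 mice could not go below p = 0.0625 in the exact sign-flip test.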
